A study of Mus musculus with 5 samples.

Results

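Cluster 8 of the mouse liver data was a group of 600 hepatocytes whose UMIs came more often from long genes than those of hepatocyte clusters 0 to 7 and 13. The cells were taken by the authors' own cluster number, without any expression value being used here, from a table of 8662 liver cells of which the authors call 7422 hepatocytes. They carry the subtype name HC Hnf4a hi, which cluster 5 shares. Of the 600 cells, 327 came from the library labelled DKO and 273 from the library labelled WT, both on a background labelled ApoE.

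Droplet single-cell RNA-seq was used, in which a unique molecular identifier (UMI) marks each captured RNA molecule. Each group is 1 library of dissociated liver, so no difference between libraries has a replicate check and no p-value can be given. The labels name the genotype DKO and speak of liver DKO mice, and the series title concerns epsins in the liver. They give neither the alleles, the driver of the deletion, the strain, the sex nor the age, and they do not say how the 3 mice they mention relate to the libraries. A further liver library, labelled WT with no background named, holds 616 cells in a table of its own and is used at the end. In cluster 8, Epn1 stood at 72.3 CPM (134 UMIs) in the library labelled DKO and at 59.1 CPM (77 UMIs) in that labelled WT, and Epn2 at 11.3 CPM (21 UMIs) and 13.04 CPM (17 UMIs). Neither epsin gene was lower in the library labelled DKO beyond counting error, with ratios of 1.22 (0.918 to 1.64) for Epn1 and 0.869 (0.437 to 1.75) for Epn2. These counts cannot check the label in either direction. The alleles are not given, UMIs summed over a gene need not fall when part of it is deleted, and Epn2 rests on few UMIs. The label DKO is used below only as the name of a library.

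As background, hepatocytes make most plasma proteins, bile acids and lipoproteins, and they divide their metabolic work along the liver lobule. Pericentral cells, near the central vein, make glutamine and carry much of the cytochrome P450 system, while periportal cells, where blood enters, make urea and glucose. Transcripts of long genes are mostly intron before splicing, and Malat1, Neat1 and Xist are noncoding RNAs that stay in the nucleus. A library of whole cells counts spliced RNA in the cytoplasm and whatever unspliced or nuclear RNA each droplet holds. The sources used here do not say whether the deposited counts include intronic reads.

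Levels below are CPM, the UMIs of a gene per 1000000 UMIs of a cluster in one library. A ratio is the CPM in the library labelled DKO over that in the library labelled WT. Brackets give 95% intervals, exact Poisson for a level, exact conditional binomial for a ratio and exact binomial for a share. All of them cover counting error only and leave out differences between cells, animals, dissociations and library preparations.

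Cells of cluster 8 had many detected genes. Their median UMI total was 5845 in the library labelled DKO and 4796 in that labelled WT, with medians of 2158 and 1952 detected genes. No cell of the table has more than 2499 detected genes or more than 19.99% mitochondrial UMIs, and at least 2400 genes were found in 16.8% (labelled DKO) and 11.7% (labelled WT) of cluster 8 cells, so the cluster lies against the upper bound of the table. The median mitochondrial share was also high, 16.4% in the library labelled DKO and 13.3% in that labelled WT, against 5.77% and 2.87% over the pooled cells of hepatocyte clusters 0 to 7 and 13, the comparison group used here. The authors also call the cells of clusters 14, 16 and 18 hepatocytes. They hold 121 and 16, 40 and 6, and 8 and 3 cells (the library labelled DKO first), and statements on the 10 hepatocyte clusters below leave them out. Clusters 5 (709 cells) and 7 (676 cells) were closest to cluster 8 in depth and mitochondrial share and are given beside it. No barcode shared by the libraries on the ApoE background, of which there were 4, belonged to cluster 8.

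The cells bore the defining genes of hepatocytes. Alb, which encodes albumin, stood at 27849 CPM in the library labelled DKO and 33662 CPM in that labelled WT, which placed cluster 8 ninth of the 10 hepatocyte clusters in both, above cluster 5 and far below the 59575 and 59440 CPM of cluster 7. The 24 plasma protein genes together took 10.8% and 12.1% of the UMIs of cluster 8, against 14.3% and 16.4% in the comparison group. Hnf4a, the nuclear receptor named in the subtype, had 313 CPM (288 to 339.7) labelled DKO against 282 CPM (254 to 313) labelled WT. Cluster 5 had 316 CPM in the library labelled DKO and cluster 7 had 261 CPM in that labelled WT, so Hnf4a did not set cluster 8 apart from its neighbours beyond counting error. Its name is therefore kept here as a number.

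Genes of other liver cell types were rare in the cluster. Of the 10 Kupffer cell markers, all were at 0 in the 327 cells labelled DKO, which allows a share of cells with such a UMI of up to 0.917% (3 counts of the total), and 6 cells labelled WT (2.20%) had any. Stellate cell markers, mostly Reln, were found in 9.48% (labelled DKO) and 5.49% (labelled WT) of cells, against 1.73% and 1.98% in the comparison group. Per UMI the stellate markers together stood at 18.4 and 12.3 CPM in cluster 8 and at 7.66 and 10.6 CPM in the comparison group. Erythroid globin UMIs were found in 27 cells labelled DKO (8.26%) and 6 labelled WT (2.20%), against 10.4% and 1.76% of cells in the comparison group. Markers of pancreatic acinar cells were found in 3.67% and 10.3% of cells, against 3.60% and 17.3% in the comparison group. Their part in the results below was not tested beyond leaving out the cells with more than 1 such UMI, which is stated where it matters.

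The 6 genes that mark cluster 8 are long genes of unlike function, and all 6 were highest in cluster 8 among the 10 hepatocyte clusters in both libraries. In the few cells of cluster 18, left out of that order, Plcb1 was at 629 CPM on 11 UMIs in the library labelled DKO and Tenm3 at 1219.8 CPM on 6 UMIs in that labelled WT, both above cluster 8. Since the clusters were made from these genes, these levels are a description. Esrrg (chr1:187608791-188214885, mm10) encodes the orphan nuclear receptor ERR gamma and stood, with the library labelled DKO first, at 233 CPM (212 to 256) and 226 CPM (201 to 254). Slc25a21 (chr12:56712634-57197472) encodes the mitochondrial oxodicarboxylate carrier of lysine breakdown and was at 316 CPM (291 to 342) and 324 CPM (294 to 356). Slc16a10 (chr10:40033532-40142258), which encodes the aromatic amino acid and thyroid hormone transporter TAT1, was at 565 CPM (532 to 601) and 470 CPM (434 to 509).

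The other 3 markers showed the same order. Tenm3 (chr8:48227682-48843951), which encodes the cell adhesion protein teneurin 3, was, in the same order of libraries, at 246 CPM (224 to 269) and 270.1 CPM (243 to 299.8). Plcb1 (chr2:134786067-135475258), a phospholipase C that acts below Gq-coupled receptors, was at 594 CPM (559 to 630.0) and 626 CPM (584 to 671). Agmo (chr12:37241641-37582202), the enzyme that cleaves ether lipids, was at 659 CPM (623 to 697) and 654 CPM (611 to 699). The annotated genes overlap other annotated genes in some cases (Pax9 on the other strand of Slc25a21, for example), and without a stated strand rule their reads cannot be told apart.

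The next-highest cluster was usually cluster 4 in the library labelled WT, and cluster 3, 4 or 5 in that labelled DKO. The step down to cluster 4 was smaller in the library labelled WT. In that library Plcb1 was at 596 CPM (546 to 649) and Agmo at 603 CPM (552 to 657) in cluster 4, intervals that overlap those of cluster 8. In the library labelled DKO the same cluster had 335 CPM of Plcb1 and 398 CPM of Agmo. The lowest levels of these 2 genes were in cluster 2, with 34.0 and 40.0 CPM of Plcb1 and 52.6 and 56.5 CPM of Agmo. In the T cells of cluster 9, which should lack these genes, Esrrg was at 5.46 and 4.33 CPM and Plcb1 at 6.83 and 8.66 CPM.

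**Figure D1:**
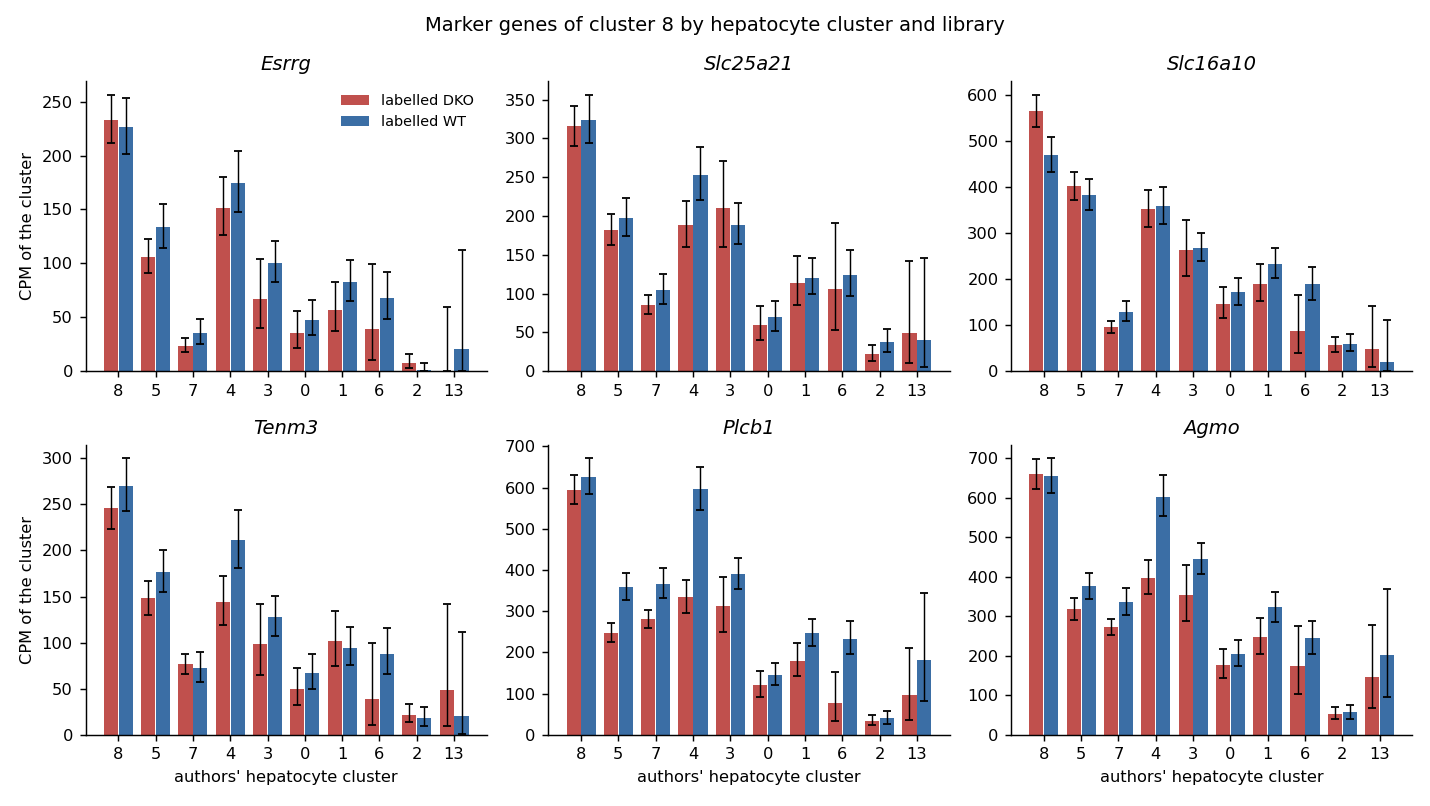
Level of the 6 marker genes in CPM (vertical axis, from 0) in hepatocyte clusters 0 to 8 and 13 (horizontal axis), with 1 bar per library and exact 95% Poisson intervals as error bars. Cluster 8 is highest of these for each gene in both libraries, while cluster 4 comes close in the library labelled WT, at 596 CPM against 626 CPM for Plcb1.

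Counted per cell at equal depth, the markers were still more often found in cluster 8 than in clusters 5 and 7 and in T cells. Cluster 4 was not thinned. With each cell thinned to 1500 UMIs, Esrrg was found in 28.7% (23.9 to 34.0) and 30.0% (24.7 to 35.9) of cluster 8 cells, the library labelled DKO first, and before thinning in 64.2% and 61.5%. In cluster 5 the thinned shares were 13.1% and 18.9%, in cluster 7 they were 3.58% and 6.54%, and in T cells 0.685% and 1.28%. Plcb1 was found in 57.5% and 56.8% of thinned cluster 8 cells, against 27.4% and 33.6% in cluster 5, 27.5% and 43.0% in cluster 7 and 1.37% and 1.28% in T cells. Slc16a10 was found in 52.0% (46.4 to 57.5) and 48.7% (42.6 to 54.8) of thinned cluster 8 cells. In cluster 5 it was found in 43.9% (38.8 to 49.0) and 37.1% (31.5 to 43.1), and the intervals overlap in both libraries. Those of Tenm3 overlap in the library labelled DKO. Thinning left out no cell of cluster 8, 23 cells of each library in cluster 5, 15 labelled DKO in cluster 7, and 94 and 8 T cells. Hnf4a was found in 36.1% and 34.8% of thinned cells of cluster 8, close to the 35.5% and 29.3% of cluster 5.

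The 20 leading genes, ranked by the smaller of the 2 within-library folds over the comparison group after adding 20 CPM to both sides, included Esrrg, Tenm3, Klf12, Slc25a21, Pid1, Xist, Sntg2, Arl15, Wwox, Gm34667, Fbxl17, Il1r1, Plcb1, Luc7l2, Cped1, Tmtc2, Sox5, Prr16 and Slc16a10. Of the 20 genes, 16 span 100 kb or more and their median span was 375 kb, against 31.9 kb over the 5934 genes with at least 50 UMIs in the cluster. Since the genes were picked by their fold over these same clusters, their order among clusters is a description. All 20 were highest in cluster 8 among the 10 hepatocyte clusters in both libraries. Their intervals lay above that of the next cluster for 20 genes in the library labelled DKO and for 10 in that labelled WT. Cluster 4 came next for 9 genes in the first library and for 19 in the second.

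Their known roles are mixed. Klf12, a transcriptional repressor, was at 363 and 402 CPM in cluster 8 against 146 and 177 CPM in the comparison group, the library labelled DKO first. Sox5, a transcription factor, was at 533 and 595 CPM against 244 and 299.9 CPM. Il1r1, the interleukin 1 receptor, is a shorter gene of 92.2 kb and was at 182 and 183 CPM against 77.6 and 83.7 CPM.

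The lowest 10 genes against the comparison group were AY036118, Cmss1, Gm42418, Camk1d, Cyp2f2, Rida, Uqcrb, Etfb, Ndufb6 and Cox5a, with a median span of 11.2 kb. Gm42418 and AY036118 overlap on opposite strands at the ribosomal RNA repeat annotated on chromosome 17 and cannot be told apart with confidence. Gm42418 was at 17785 CPM in cluster 8 and 44223 CPM in the comparison group of the library labelled DKO, and at 9050.0 and 25841 CPM in that labelled WT. Cluster 5 was lower still, at 9700.4 and 3904 CPM, and cluster 7 stood at 18779 and 5302 CPM. Uqcrb, Ndufb6 and Cox5a encode subunits of the respiratory chain, and Etfb encodes a carrier of electrons from fatty acid oxidation. Cox5a was at 262 CPM in cluster 8 against 446 CPM in the comparison group (labelled DKO), and at 335 against 674 CPM (labelled WT).

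Long genes took a larger share of the RNA in cluster 8 than in the comparison group. Of the UMIs from nuclear genes, genes that span 100 kb or more gave 16.04% (15.99 to 16.10) in the cluster 8 cells labelled DKO and 16.3% (16.2 to 16.3) in those labelled WT. The pooled comparison group had 10.5% in both libraries, which makes ratios of 1.53 and 1.55. Across single hepatocyte clusters 0 to 7 and 13 the share ran from 8.05% to 12.2% in the library labelled DKO and from 5.82% to 14.1% in that labelled WT, and cluster 4 had the highest value in both. The 8 and 3 cells of cluster 18 had 18.4% (17.8 to 19.0) and 18.2% (17.2 to 19.4), above cluster 8. High values were not particular to these hepatocytes: T cells of cluster 9 had 18.8% and 14.9% and B cells of cluster 11 had 20.7% and 15.7%. With cells limited to 500 or more genes and less than 10% mitochondrial UMIs, which left 31 cells labelled DKO and 98 labelled WT in cluster 8, the ratio to the comparison group under the same limits was 2.42 and 1.95.

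**Figure D2:**
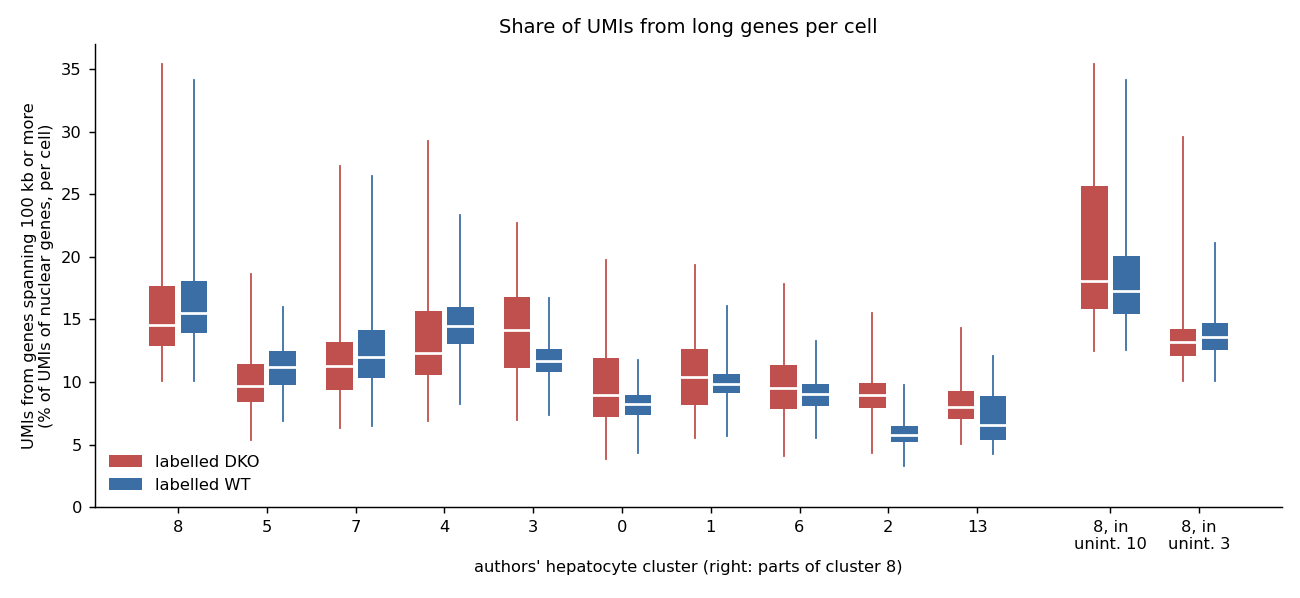
Share of nuclear-gene UMIs from genes spanning 100 kb or more, per cell in percent (vertical axis), by hepatocyte cluster (0 to 8 and 13) and library (boxes from the first to the third quartile, white line at the median, thin line from lowest to highest cell). Medians of cluster 8 were 14.6% labelled DKO and 15.5% labelled WT, and the boxes at the right show its cells that fall in clusters 10 and 3 of the authors' unintegrated clustering, with medians of 18.1% and 17.3%, and of 13.2% and 13.6%.

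The difference from the comparison group grew with genomic span in steps. Among genes spanning up to 5 kb the median log2 fold of cluster 8 over the comparison group was -0.25 in the library labelled DKO and -0.24 in that labelled WT. It was 0.04 and 0.10 at 20 to 50 kb, 0.40 and 0.41 at 100 to 200 kb, and 0.71 and 0.64 above 400 kb. Of the 5934 genes, 319 (5.38%) were at least 1.5-fold higher in both libraries and 43 (0.725%) at least 1.5-fold lower. Among the 105 genes above 400 kb, 58 (55.2%) were higher by that measure, against 9 of 573 genes (1.57%) up to 5 kb. The length of the mature transcript went along with span. Genes of 100 kb or more whose longest mature transcript is under 3 kb had medians of 0.41 and 0.40 (162 genes). Those with a mature transcript of 5 kb or more had 0.49 and 0.49 (575 genes). Genes under 20 kb had -0.20 and -0.17 with a mature transcript under 3 kb (1623 genes). With one of 3 kb or more they had -0.03 and 0.06 (460 genes). Medians thus rose with mature length within each span group. At a mature length under 3 kb they were higher in the long-span group. The longer mature classes start at 5 kb in one span group and at 3 kb in the other, so they are not matched.

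**Figure D3:**
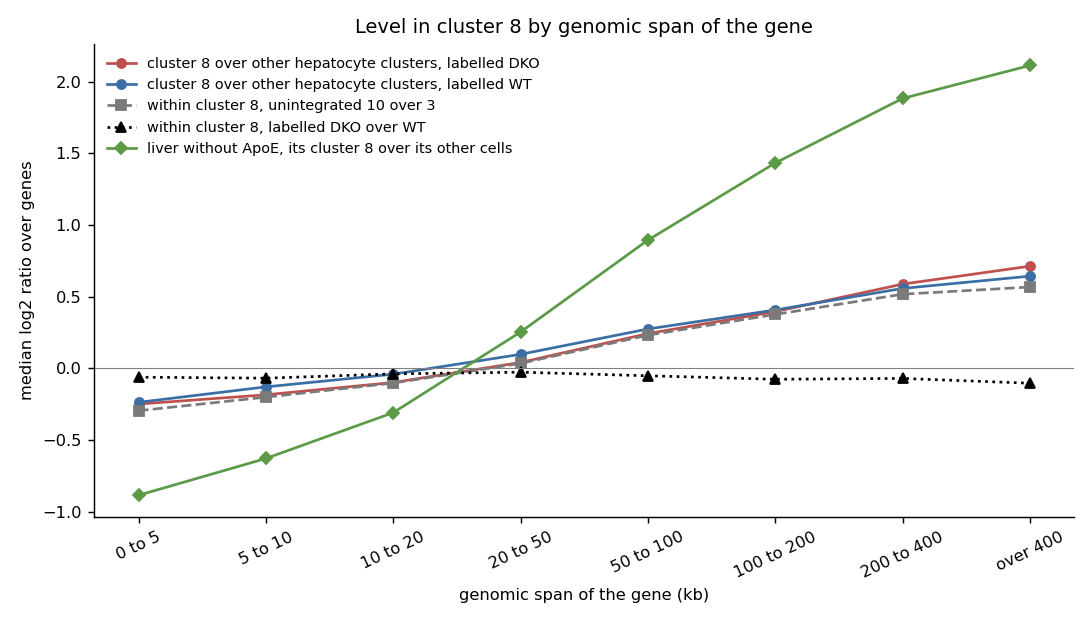
Median log2 ratio over genes (vertical axis) by genomic span of the gene in kb (horizontal axis), for cluster 8 over the other hepatocyte clusters in each library, for 2 parts of cluster 8, for the library labelled DKO over that labelled WT within cluster 8, and for cluster 8 of the liver library without the ApoE label. All lines rise with span except that of the libraries against each other, which stays between -0.10 and -0.03.

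The nuclear noncoding RNAs were high as well. Malat1 was at 9309 CPM in the library labelled DKO, the highest of the 10 hepatocyte clusters, and at 7559 CPM in that labelled WT, where cluster 4 had 8578 CPM. The few cells of cluster 18 had more, 18140 and 25208 CPM. Xist, the RNA of the inactive X chromosome whose locus overlaps Tsix, was at 1211 and 1158 CPM, against 539 and 555 CPM in the comparison group. All 5 measured members of that list were at least 1.5-fold higher in both libraries. Within the cluster, cells with more long-gene UMIs had more Malat1, with a Spearman rho over cells of 0.64 (327 cells labelled DKO) and 0.68 (273 labelled WT). The same long-gene share fell with UMI total, with a rho of -0.31 and -0.46. These correlations are descriptions over cells that share a library. The long-gene and Malat1 shares both have the cell's UMIs of nuclear genes as denominator.

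Mitochondrial RNA and the nuclear genes of the same machinery went opposite ways. Of 13 mitochondrially encoded genes, 7 were at least 1.5-fold higher in both libraries, and together they took 15.5% and 12.6% of UMIs against 10.3% and 7.17% in the comparison group. Clusters 5 and 7 had 12.5% and 13.8% in the library labelled DKO, and 14.6% and 14.8% in that labelled WT, both above cluster 8 there. Of 79 nuclear oxidative phosphorylation genes, 78 were below the comparison group in both libraries, 15 of them by at least 1.5-fold, with median log2 folds of -0.53 and -0.54. Over all 5934 genes the medians were 0.06 and 0.11. The genes whose symbols begin with Rps or Rpl and a digit, called ribosomal protein genes here although 3 of the 80 measured (Rps6kb1, Rps6kc1 and Rps6ka3) encode S6 kinases, had medians of -0.23 and -0.26, and 73 of them were lower in both libraries, none by 1.5-fold.

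Among genes of hepatocyte control, 4 of 20 measured transcription factors were at least 1.5-fold higher in both libraries and none lower, beside 5.38% higher and 0.725% lower over all genes. Ppara, the receptor that drives fatty acid oxidation, was at 797 and 607 CPM against 388 and 329 CPM in the comparison group. Thrb, a thyroid hormone receptor, was at 444 and 458 CPM against 207 and 246 CPM. Nr1h4, the bile acid receptor FXR, was at 336 and 350 CPM against 172 and 211 CPM, and Nr1i3, the xenobiotic receptor CAR and a gene of only 6.73 kb, at 187 and 206 CPM against 116 and 130 CPM.

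In insulin and glucagon signalling 5 of 26 measured genes were at least 1.5-fold higher in both libraries and none lower, among them Foxo3 (218 and 279 CPM against 99.9 and 143 CPM), a factor restrained by insulin, and Irs2 (118 and 93.6 CPM against 52.0 and 46.1 CPM), an insulin receptor substrate. Of 26 transcription and splicing genes 8 were higher, such as Zbtb20 (1700.0 and 1954 CPM against 924 and 1018 CPM), a repressor active in liver whose gene spans 767 kb. Of 15 phospholipase C and calcium genes 4 were higher and 1, Camk1d, lower. Itpr1, a calcium release channel with a gene of 338 kb, was at 314 and 380 CPM against 164 and 197 CPM. Over all genes 5.38% were higher and 0.725% lower. Higher genes made up 36.7% of those spanning 200 to 400 kb and 55.2% of those above 400 kb. Whether these lists go beyond the span of their members was not tested.

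Lists of lipid metabolism are read beside the same 5.38% and 0.725%. In fatty acid and triglyceride synthesis 3 of 22 were at least 1.5-fold higher, namely Lpin2, Mlxipl and Acacb, with Lpin2, a phosphatidate phosphatase, at 1183 and 1097 CPM against 704 and 695 CPM. None of 23 genes of cholesterol synthesis and none of 23 of fatty acid oxidation passed 1.5-fold in both libraries in either direction. In bile acid synthesis and transport Abcb4 and Abcc2, which encode canalicular pumps, were the 2 of 20 that did.

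Along the lobule, cluster 8 lay between cluster 5 and cluster 7. Glul, the pericentral glutamine synthetase, was at 2425 CPM in cluster 5, 525 CPM in cluster 8 and 103 CPM in cluster 7 of the library labelled DKO, and at 1996, 438 and 141 CPM in that labelled WT. Cyp2e1, a pericentral cytochrome P450, was at 4815, 3218 and 225 CPM in the first library and 4015, 2509 and 499 CPM in the second. Cyp2f2, a periportal cytochrome P450, ran the other way, at 30.7, 92.9 and 840.4 CPM in the first library and 84.8, 202 and 869.7 CPM in the second. Gls2 and Sds, a glutaminase and a serine dehydratase of periportal cells, had the same order. Cps1, the first enzyme of the urea cycle, broke that order, with 4289 and 4876 CPM in cluster 8, above the 4153 and 4503 CPM of cluster 7.

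**Figure D4:**
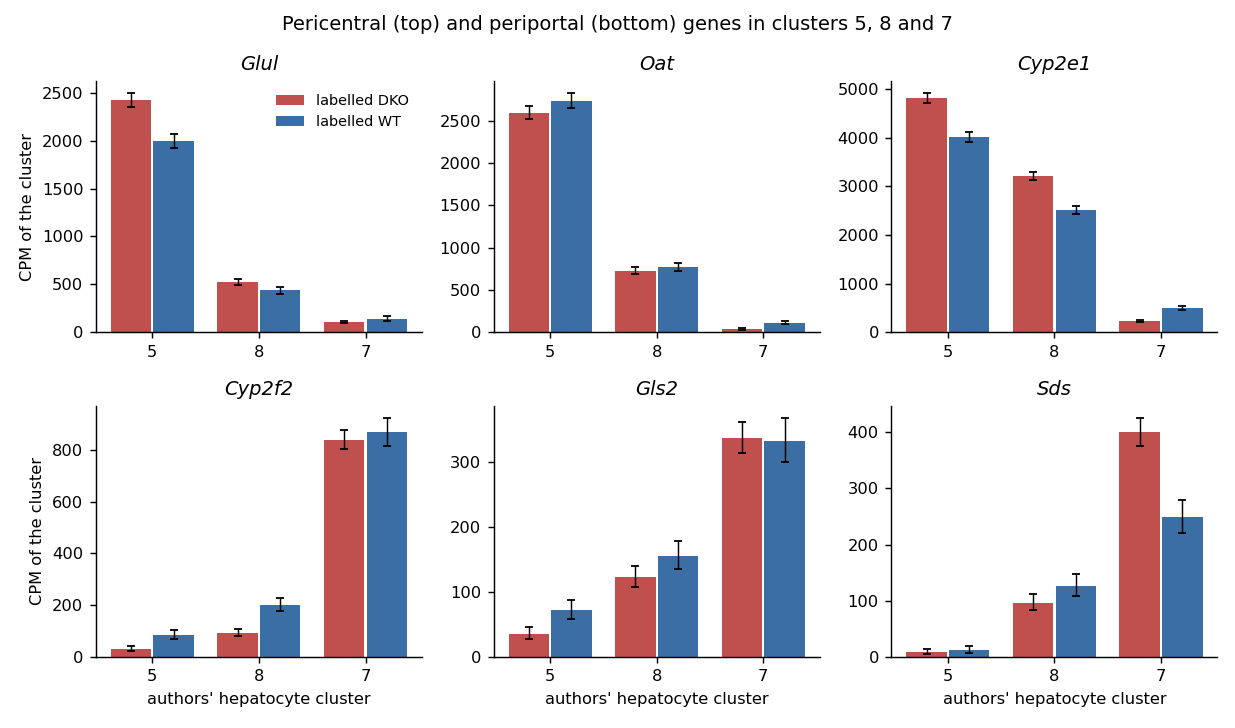
Level in CPM (vertical axis, from 0) of 3 pericentral genes (top) and 3 periportal genes (bottom) in clusters 5, 8 and 7 (horizontal axis), with 1 bar per library and exact 95% Poisson intervals. Cluster 8 takes the middle place for each gene, with Glul at 525 and 438 CPM between 2425 and 1996 CPM in cluster 5 and 103 and 141 CPM in cluster 7.

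Cluster 8 was not uniform. The authors' metadata hold a second clustering of the same cells, named for the RNA values rather than for integrated data and called unintegrated here. Of its cluster 10, 278 of 305 cells (91.1%) lay in cluster 8, and they made up 131 of the 327 cells labelled DKO (40.1%) and 147 of the 273 labelled WT (53.8%). Another 174 cells labelled DKO (53.2%) and 85 labelled WT (31.1%) came from unintegrated cluster 3, and 22 and 15 from cluster 7. The remaining 26 cells, all labelled WT, came from unintegrated cluster 1. The 2 libraries thus held these parts in different proportions.

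The part from unintegrated cluster 10, called the first, had the higher long-gene share, and that from unintegrated cluster 3 is called the second. The first part's median long-gene share was 18.1% labelled DKO and 17.3% labelled WT, while that of the second was 13.2% and 13.6%, which is above the medians of clusters 5 and 7. Of the 5934 genes, 454 (7.65%) were at least 1.5-fold higher in the first part and 186 (3.13%) at least 1.5-fold lower. Sds was at 194 and 170.3 CPM in the first part and at 8.93 and 38.6 CPM in the second. Nrg4, a growth factor of the neuregulin family, was at 342 and 348 CPM against 112 and 131 CPM. Camk1d, a calmodulin-dependent kinase, was at 3404 and 909.5 CPM against 592 and 341 CPM, so the first part was higher within each library although the libraries differ. As both parts were made from these values, this too is a description.

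Ribosomal protein genes were lower in the first part, 62 of 80 by at least 1.5-fold, with a median log2 ratio of -0.74 against 0.05 over all genes. Rpl41 was at 1071 and 1201 CPM against 2255 and 2278 CPM. Periportal genes were higher in it (8 of 20 by 1.5-fold, none lower, median 0.43) and pericentral genes lower (5 of 18, none higher, median -0.28), among them Glul at 282 and 408 CPM against 750.3 and 464 CPM. All 4 members of the ribosomal RNA list and 4 of 5 nuclear noncoding RNAs were at least 1.5-fold higher in it. That list holds Gm42418, AY036118 and Gm26917 of chromosome 17 and also Lars2, a gene of chromosome 9 that lies outside the repeat. Mitochondrially encoded genes together took 12.9% of its UMIs and 15.8% of those of the second part.

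A small number of cells stood out by low mitochondrial RNA. Only 6 cells labelled DKO and 15 labelled WT had under 2% mitochondrial UMIs, and their median long-gene share was 32.0% and 28.7%, against 14.5% and 15.4% in the other cells of the cluster. In cluster 5 the 9 such cells labelled DKO and 7 labelled WT had medians of 8.68% and 8.34%, and in cluster 7 there was 1 such cell, labelled DKO, at 6.33%. With cells under 2% mitochondrial UMIs left out of cluster 8 and of the comparison group alike, the long-gene ratio of cluster 8 to the comparison group was 1.47 and 1.38.

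Cluster 8 made up 7.55% (6.78 to 8.38) of one library, that labelled DKO, and 6.30% (5.598 to 7.07) of the other. The ratio of these shares was 1.20 (1.02 to 1.41). As a share of the cells called hepatocytes the ratio was 1.43. Under the same limits on genes and mitochondrial UMIs the direction turned, with a ratio of 0.525 on 31 cells labelled DKO and 98 labelled WT. The table holds 4331 cells of each library, and the sources used here do not say how cells were chosen for it.

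Between the libraries, the 6 marker genes stayed under 1.5-fold. Of the 6 markers none passed 1.5-fold and their median log2 ratio was -0.01, beside -0.05 over all 5934 genes with at least 50 UMIs, of which 189 (3.19%) were at least 1.5-fold higher and 266 (4.48%) lower. Slc16a10 had the largest ratio, 1.20 (1.09 to 1.33), and Tenm3 the smallest, 0.909 (0.790 to 1.05). The long-gene share gave a ratio of 0.987, which turned to 1.01 with a bound of 200 kb or without the cells of under 2% mitochondrial UMIs, to 1.10 within unintegrated cluster 10 and to 1.16 among cells under 10% mitochondrial UMIs. The median ratio was flat over span. Of 20 measured hepatocyte transcription factors none passed 1.5-fold, and Ppara had the highest ratio of them, 1.31 (1.20 to 1.43).

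Of the 4086 genes with at least 100 UMIs in the cluster, 75 (1.84%) were at least 1.5-fold higher in the library labelled DKO and 106 (2.59%) at least 1.5-fold lower. This balance depended on the scaling. Without mitochondrially encoded genes, Malat1 and the ribosomal RNA list in the totals, 95 were higher and 66 lower, and with the median ratio set to 1, 93 and 75. Thinning each cell to 2000 UMIs left 39 higher and 93 lower. Within unintegrated cluster 10 the counts were 50 and 203, and within unintegrated cluster 3 they were 78 and 74. With a minimum of 50 UMIs within the part itself, 4.19% of genes were higher and 9.86% lower within unintegrated cluster 10, and 5.6% and 4.86% within unintegrated cluster 3.

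The 12 highest genes, ranked by the bound of the interval nearest to 1, were Hbb-bs, Cmss1, Cdk8, Dnajc12, mt-Nd2, Camk1d, Il31ra, Lars2, Gm42418, mt-Cytb, Mup16 and Taco1. Hbb-bs, an adult beta globin of red cells, had 304 UMIs in 15 cells labelled DKO, 143 of them in a single cell, and 3 UMIs in the library labelled WT. Its ratio fell from 71.3 to 4.26 in cells with at most 1 UMI of other cell markers, a list that holds Hbb-bs itself, so the fall follows from how those cells were chosen. Cmss1, whose locus overlaps Filip1l on the other strand, was at 1854 and 523 CPM, a ratio of 3.54 (3.26 to 3.85). Dnajc12, a co-chaperone of the aromatic amino acid hydroxylases, was at 177 and 54.5 CPM, a ratio of 3.24 (2.50 to 4.25). Cdk8, the kinase of the Mediator complex, was at 467 and 142 CPM, a ratio of 3.29 (2.80 to 3.88), which was 5.25 within unintegrated cluster 10 and 1.73 within cluster 3. Gm42418, of the ribosomal RNA repeat, also rose within unintegrated cluster 10, from 1.97 to 2.74. So did Cmss1 (to 5.32), Camk1d (from 2.33 to 3.74) and Lars2 (from 2.21 to 3.57), whereas Dnajc12 (2.36) and Mup16 (from 2.62 to 2.22) fell. Whether these genes vary with Gm42418 was not tested.

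The 12 lowest genes included Ccdc152, B430119L08Rik, AY036118, Etnppl, Cyp2f2, Gm10076, Ifitm2, Hsd17b6, Tiparp, Ctsc and Mup3. Ccdc152, which overlaps the selenoprotein P gene Selenop on the other strand, was at 113 and 617 CPM, a ratio of 0.184 (0.157 to 0.214), whereas Selenop itself had a ratio of 1.09 (1.04 to 1.14). B430119L08Rik overlaps Serpina1c in the same way. Etnppl, a periportal phospholyase, had 65 and 116 UMIs and a ratio of 0.394 (0.286 to 0.539), and Tiparp, a target of the aryl hydrocarbon receptor, had 45 and 73 UMIs and a ratio of 0.434 (0.292 to 0.637). Mup3, one of the major urinary proteins, was at 2426 and 3919.6 CPM, a ratio of 0.619 (0.594 to 0.644), while its near copies Mup16, Mup12 and Mup18 were higher, and reads of such copies may be assigned to one another.

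Most of these differences were not confined to cluster 8. Over all genes with at least 50 UMIs, 6.18% were at least 1.5-fold higher and 4.02% lower in cluster 5, and 5.18% and 4.67% in cluster 7. All 12 of the highest genes were above 1 in clusters 5 and 7 as well, and 10 of them were past 1.5-fold in both. Of the 12 lowest, all were below 1 in cluster 5 and 10 in cluster 7, but only 5 were past 1.5-fold in both. Etnppl and Ctsc, a lysosomal protease, stood at 1.01 and 1.09 in cluster 7, and Cyp2f2 at 0.966. Differences between clusters in these ratios were not tested, and all 3 clusters come from the same pair of libraries.

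**Figure D5:**
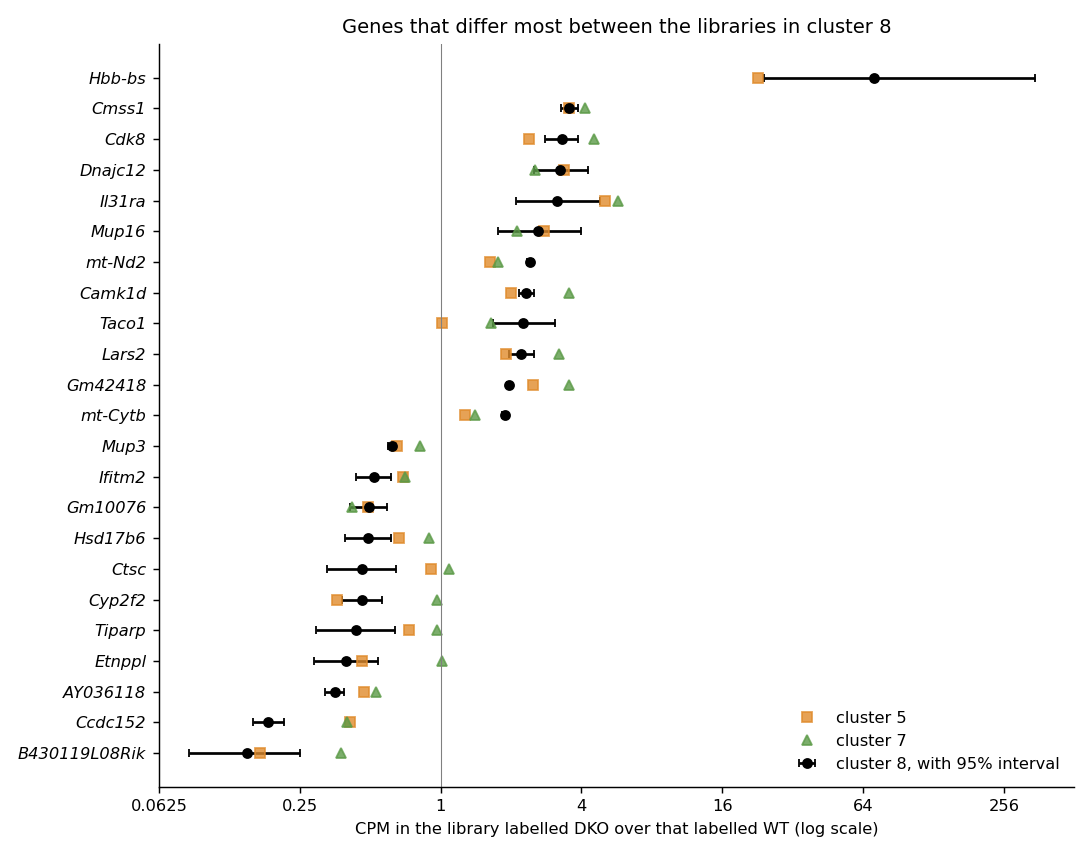
Ratio of CPM in the library labelled DKO over that labelled WT (horizontal axis, log scale) for the highest and lowest genes of cluster 8 named in the text (rows), with exact 95% intervals, beside the ratios of the same genes in clusters 5 and 7. Hbb-bs (71.3) lies far to the right on 304 against 3 UMIs and has no point for cluster 7, where the library labelled WT had none, and Cyp2f2 is low in clusters 8 and 5 but at 0.966 in cluster 7.

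Over the whole cluster most periportal genes were lower in the library labelled DKO, 16 of 20 being below 1, while pericentral genes were mixed, with 11 above 1 and 7 below. Of 18 pericentral genes 3 were at least 1.5-fold higher and none lower, with a median log2 ratio of 0.16, and of 20 periportal genes none was higher and 5 were lower, with a median of -0.30, beside 3.19% higher and 4.48% lower over all genes. Cyp2a5, which hydroxylates coumarin, had a ratio of 1.71 (1.54 to 1.90) and Cyp2e1 1.28 (1.23 to 1.34). Cyp2c37 stood at 0.697 (0.606 to 0.801) and Rgn, also of the pericentral list, at 0.790 (0.739 to 0.846). Cyp2f2 was at 92.9 and 202 CPM, a ratio of 0.460 (0.377 to 0.560), and Hsd17b6, a steroid dehydrogenase, at 73.4 and 149.6 CPM, a ratio of 0.491 (0.391 to 0.614). The pericentral median turned to -0.14 within unintegrated cluster 10 and was 0.14 within unintegrated cluster 3, and the periportal median was -0.12 and -0.26. The libraries hold these parts in different proportions, and the part this takes in the difference over the whole cluster was not tested. These medians were not particular to cluster 8: in cluster 5 the pericentral and periportal medians were 0.16 and -0.38. In cluster 7 they were -0.65 and 0.02, with 8 of 15 pericentral genes at least 1.5-fold lower beside 4.67% of all genes. There Cyp2e1 had a ratio of 0.451 (0.400 to 0.508).

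Mitochondrially encoded genes were higher in the library labelled DKO, 4 of 13 by at least 1.5-fold against 3.19% of all genes, with a median of 0.46. Within unintegrated cluster 10 the count was 7 of 13 with a median of 0.62, within unintegrated cluster 3 it was 2 of 13 with 0.13, and the medians were -0.12 in cluster 5 and 0.07 in cluster 7. Among these genes mt-Nd2 was at 10580.3 and 4393 CPM, a ratio of 2.41 (2.34 to 2.48), which was 1.67 among cells with under 10% mitochondrial UMIs. Nuclear oxidative phosphorylation genes had a median of -0.21, with 1 of 79 higher and 4 lower against 4.48% lower over all genes, and Cox4i1 was at 0.633 (0.580 to 0.691). Within unintegrated cluster 10, where 9.86% of all genes were lower, 26 of 76 were lower with a median of -0.50, and within unintegrated cluster 3, 6 of 77 with -0.09. In clusters 5 and 7 their medians were 0.08 and 0.10. Plasma protein genes had a median of -0.23, with none of 24 past 1.5-fold, and Ttr, the thyroxine carrier transthyretin, stood at 5263 and 7066 CPM. The glutathione S-transferase genes had a median of -0.30, with Gstp1 at 0.515 (0.349 to 0.755) on 49 and 67 UMIs. The ribosomal protein genes had a median of 0.15 with 1 of 80 higher, but this was -0.26 within unintegrated cluster 10.

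Genes of lipoprotein uptake and clathrin coats are read beside the 3.19% higher and 4.48% lower over all genes. Of 10 measured lipoprotein receptor genes 2 were at least 1.5-fold higher, Lrp5 at 1.96 (1.14 to 3.51) on 53 and 19 UMIs, and Vldlr at 1.52 (0.852 to 2.83), whose interval holds 1. Of 15 measured epsin and clathrin adaptor genes 1 was past 1.5-fold, Ap2s1 at 0.658 (0.452 to 0.957), and none of 23 cholesterol synthesis genes was.

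Cells with a high long-gene share were also found in the liver library without the ApoE label. Its 616 cells carry cluster numbers of their own, which need not mean the same cells, and its cluster 8 was singled out after its values were seen, so its values are a description. That cluster has 41 cells, with a median of 3449 UMIs and 0.518% mitochondrial UMIs. Its median long-gene share was 25%, against medians of 5.71% to 7.84% in the other 5 clusters, and all 34 cells of the library with a share of at least 20% lay in it.

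The leading genes of cluster 8 on the ApoE background were all 20 highest in it, at ratios of 3.61 (Il1r1) to 13.9 (Esrrg) over the rest of that library. Esrrg was at 366 CPM (50 UMIs) against 26.3 CPM, Tenm3 at 828 CPM (113 UMIs) against 92.1 CPM and Slc25a21 at 601 CPM (82 UMIs) against 67.0 CPM. Many other genes were higher too: of 4430 genes with at least 50 UMIs in that library 38.1% were at least 1.5-fold higher in the cluster, and the median log2 ratios by span, over the genes tested in cluster 8 on the ApoE background and with 20 CPM added to both sides, ran from -0.89 up to 5 kb to 2.11 above 400 kb. Malat1 was at 27624 CPM against 2616 CPM, Xist at 1949 against 323 CPM, and Hnf4a at 234 against 102 CPM. Alb was at 22026 against 38351 CPM. In contrast to cluster 8 on the ApoE background, mitochondrial RNA was low. This was not particular to that cluster: clusters 0 and 3 of the same library had medians of 0.457% and 0.367%, while clusters 2, 4 and 12 had 4.53%, 13.8% and 5.42%.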

How the data were processed

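The authors deposited tables of UMI counts per gene and cell with metadata that give each cell's library, cluster and cell type, and the counts were used as deposited. Cell Ranger 7.1.0 and mm10 are named per the submitters' processing notes. The sources used here do not give cell filtering, doublet removal or the counting of intronic reads. No doublet caller was run. In each of 2 tables, 26 metadata columns were not used. The members and gene lists were chosen with earlier results of these data known.

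UMIs were summed per cluster and library and divided by the library's cluster total. Folds against clusters 0 to 7 and 13 had 20 CPM added to both sides. Ratios between libraries had no pseudocount and were read for genes with at least 100 UMIs, or 50 for lists, with a change called past 1.5-fold. Genomic spans came from GENCODE M21, which gave 98.5% of 18307 genes a span. Genes were named by rank: the 20 highest and 10 lowest against other clusters among genes of at least 100 CPM, the 12 highest and 12 lowest between libraries by the interval bound nearest to 1, and up to 4 of each list. Nrg4, Mup12, Mup18, Selenop and the genes given as examples for parts of the cluster were chosen after their values were seen, and so were genes listed as all those of a list past 1.5-fold. With 1 library per group no test across samples could be made. Computation used Python 3.11.15, numpy 2.4.6, scipy 1.17.1, pandas 2.3.3 and matplotlib 3.10.9, and the scripts were tested on simulated data. Library totals were 10999072 UMIs labelled DKO and 9497896 labelled WT. Alternatives varied the UMI minimum, scaling, depth, span bound, cell filters and comparison clusters. Some genes that these rules name are not reported here.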

Additional observations from a re-analysis of the deposited data

Results flagged for a closer look

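Lcn2, which encodes the secreted iron-siderophore binding protein lipocalin 2 and is an acute phase gene, differed in opposite directions between clusters. In cluster 8 its level in the library labelled DKO over that in the library labelled WT had a ratio of 0.478 (0.300 to 0.755, on 34 and 50 UMIs). In cluster 7 the ratio was 1.55 (1.16 to 2.09, on 209 and 63 UMIs). The difference between the clusters was not tested, and the intervals cover counting error only.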

How the results depend on the processing

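No paired analysis was possible because each group is 1 library and the labels give every library the same number, and for the same reason no library could be left out in turn. Of 598 recomputed values, 476 were classed as the same, 115 as moved and 7 as reversed. Of 263 values of named genes none was classed as reversed. A change of sign was not always classed as reversed, so the 7 are not a count of all changes of sign. The pericentral median went from 0.16 to -0.14 within unintegrated cluster 10 and was not among the 7. Restricting to unintegrated cluster 10 or 3, and leaving out cells under 2% mitochondrial UMIs (from cluster 8 and the group it is set against alike, as for the other limits on cells), were chosen after seeing the data. The 75 higher genes became 561 with a minimum of 20 UMIs, 19 with 300, 39 after thinning to 2000 UMIs and 45 among strict cells, those of 500 or more genes with less than 10% mitochondrial UMIs. The 106 lower genes became 659 and 28 under those minimums. They became 66 when scaled without mitochondrially encoded genes, Malat1 and the ribosomal RNA list, and 203 within unintegrated cluster 10. There the pericentral median was -0.14 and the periportal median -0.12. The ratio of cell shares, 1.20, was 0.525 among strict cells, 1.44 among cells with at most 1 UMI of other cell markers and 1.43 among hepatocytes. The long-gene share of the library labelled DKO over that labelled WT, 0.987, was 0.995 with a bound of 50 kb, 1.01 with 200 kb, 1.16 among strict cells, 0.969 with at most 1 other-marker UMI, 1.10 within unintegrated cluster 10 and 1.01 without cells under 2% mitochondrial UMIs. Over other hepatocyte clusters, the long-gene ratio of 1.53 labelled DKO was 1.42 at 50 kb, 1.65 at 200 kb, 1.59 with cells weighted alike, 2.42 among strict cells, 1.51 with at most 1 other-marker UMI, 1.54 against all other clusters called hepatocytes, 1.46 against clusters 5 and 7 and 1.47 without low-mitochondrial cells. That of 1.55 labelled WT was 1.43, 1.70, 1.66 and 1.95 for the first 4 of these, 1.37 against clusters 5 and 7 and 1.38 without low-mitochondrial cells. The ribosomal protein median of 0.15 was -0.18 among strict cells and -0.26 within unintegrated cluster 10. Except where the construction leaves fewer genes or cells, the cause was not tested. The depth of single genes limits ratios of those under 100 UMIs.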
